A study of Mus musculus with 14 samples.

Results

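The respiratory chain is the set of enzyme complexes in the inner mitochondrial membrane that turns fuel oxidation into ATP. Complex I takes electrons from NADH and complex II takes them from succinate, and both pass them to coenzyme Q. Complex III hands them to cytochrome c and complex IV hands them to oxygen. Proton pumping by complexes I, III and IV drives complex V, the ATP synthase. Most subunits are encoded in the nucleus, and a small core of complexes I, III, IV and V is encoded in mitochondrial DNA. The liver uses this chain to oxidise fatty acids and to pay for glucose and urea synthesis.

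The genes described here were chosen by symbol in the array annotation, not by their values. They are the genes that start with Nduf (complex I), Uqcr (complex III) or Atp5 (complex V), the Sdh genes of complex II, and the Cox genes numbered 4 to 8 of complex IV. The muscle forms Cox6a2, Cox7a1 and Cox8b were left out of the list. The rule found 82 of the 16593 named genes on the array, with 104 probes. Of these, 76 encode subunits, 5 encode complex I assembly factors (Ndufaf1, Ndufaf3, Ndufaf4, Ndufaf5 and Ndufaf7) and 1 is annotated as a pseudogene (Ndufs5-ps). Complex I accounts for 40 genes, complex II for 3, complex III for 8, complex IV for 15 and complex V for 16. Ndufa4 is counted with complex I because of its symbol, although its protein is now placed in complex IV. Sdha has no probe named here and was not analysed, and no gene of the mitochondrial DNA is named on the array, so only nuclear-encoded parts of the chain are described.

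Illumina MouseRef-8 v2 beadchips were used to profile liver RNA from 14 male C57Bl/6J mice, 1 array for each labelled biological replicate. The mice of 1 group (7 arrays) ate a palatinose diet and those of the other (7 arrays) an isocaloric sucrose diet, in each case for 22 weeks by the titles, whereas the age label reads 18 weeks. Palatinose, also called isomaltulose, joins the same glucose and fructose units as sucrose by another bond and is digested more slowly. C57Bl/6J mice carry a deletion in Nnt, the proton-driven NADPH-forming enzyme of the inner membrane, and by the strain label both diet groups share it. The 3 Nnt probes were detected on 0 arrays. That alone cannot show the deletion, since a hepatocyte marker, Tat, also had a probe detected on 0 arrays. C57BL/6 mice also carry a shortened form of Cox7a2l, a factor that joins complexes III and IV. The defining hepatocyte transcripts Cyp2e1, Apoa1 and Ttr gave signals of 16058 to 20791 on palatinose arrays and 16052 to 20486 on sucrose arrays, and of 9 hepatocyte markers with a probe 7 or 8 were detected on each array. The probe for Alb was detected on 4 arrays and that for Tat on 0.

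Several arrays stood apart before any comparison. Mean signal was 202 to 210 on the palatinose arrays and 190 to 215 on 6 sucrose arrays, against 257 on sucrose array SUC_424_02. On SUC_424_02, 17.7% of all kept probes lay more than 0.5 log2 from the median of the other 13 arrays, whereas this share was 1.22% to 8.03% on the others. Skeletal muscle transcripts were present on 4 arrays: of 14 muscle markers, 13 were detected on palatinose array PAL_407_04, 12 on PAL_417_03, 14 on PAL_429_03 and 13 on sucrose array SUC_415_02, against 2 to 6 on the other 10. The summed signal of these markers ran from 75 to 7805 on palatinose arrays and from 70 to 4744 on sucrose arrays. Pancreatic acinar transcripts were present on 2 sucrose arrays, SUC_415_02 (12 of 12 markers detected) and SUC_421_03 (10 of 12), against 2 or 3 on each other array. Of 4 brown fat markers, Ucp1 and Dio2 were detected on 0 arrays. The other markers of that list were detected on all 14 arrays, Cidea with signals of 46 to 2471 and Elovl3 with 84 to 418.

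Nuclear respiratory chain genes are known targets of the transcription factors NRF1, GABP (of the ETS family), ERR alpha and YY1. The promoters of 7 tested genes are printed to show the start sites of at least 1 gene of each complex and the letters searched for. They are RefSeq sequence of GRCm38.p6, 200 bases before to 30 after the annotated start, 5′ to 3′ on the gene's strand, with motif matches in capitals. For complex I, Ndufa8 (chr2:36049309-36049538, minus strand) holds the NRF1 letters GCGCATGCG. For complex II, Sdhd (chr9:50603820-50604049, minus strand) holds the GABP letters CCGGAAG. For complex III, Uqcr11 (chr10:80406792-80407021, minus strand) holds both. For complex IV, Cox6a1 (chr5:115348929-115349158, minus strand) holds both, and Cox6b2 (chr7:4753065-4753294, minus strand), the testis form that varied most between livers, holds none of the 4 factors' letters in this stretch. For complex V, Atp5e (chr2:174464072-174464301, minus strand) holds the GABP letters and Atp5g3 (chr2:73911297-73911526, minus strand) the ERR letters TCAAGGTCA.
Ndufa8: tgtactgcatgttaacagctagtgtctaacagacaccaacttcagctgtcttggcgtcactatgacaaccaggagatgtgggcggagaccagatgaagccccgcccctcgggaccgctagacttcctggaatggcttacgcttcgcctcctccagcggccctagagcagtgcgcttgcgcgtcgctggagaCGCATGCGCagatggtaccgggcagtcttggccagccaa
Sdhd: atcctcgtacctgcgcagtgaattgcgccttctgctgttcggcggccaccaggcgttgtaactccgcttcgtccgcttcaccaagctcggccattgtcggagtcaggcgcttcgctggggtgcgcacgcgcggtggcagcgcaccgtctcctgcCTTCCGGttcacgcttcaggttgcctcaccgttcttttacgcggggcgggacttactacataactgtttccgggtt
Uqcr11: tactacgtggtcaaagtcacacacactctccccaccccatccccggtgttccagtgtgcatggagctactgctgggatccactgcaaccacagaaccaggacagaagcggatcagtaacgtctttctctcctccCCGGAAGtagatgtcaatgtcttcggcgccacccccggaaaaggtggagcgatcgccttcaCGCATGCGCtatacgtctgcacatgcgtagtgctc
Cox6a1: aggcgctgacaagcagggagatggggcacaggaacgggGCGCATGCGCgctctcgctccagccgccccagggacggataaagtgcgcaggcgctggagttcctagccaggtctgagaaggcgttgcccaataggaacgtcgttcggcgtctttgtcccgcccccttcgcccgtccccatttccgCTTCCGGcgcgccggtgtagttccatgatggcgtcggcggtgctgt
Cox6b2: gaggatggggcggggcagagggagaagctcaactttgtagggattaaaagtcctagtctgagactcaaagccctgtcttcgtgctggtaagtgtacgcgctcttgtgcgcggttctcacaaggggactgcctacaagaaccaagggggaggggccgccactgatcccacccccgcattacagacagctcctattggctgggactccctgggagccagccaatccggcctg
Atp5e: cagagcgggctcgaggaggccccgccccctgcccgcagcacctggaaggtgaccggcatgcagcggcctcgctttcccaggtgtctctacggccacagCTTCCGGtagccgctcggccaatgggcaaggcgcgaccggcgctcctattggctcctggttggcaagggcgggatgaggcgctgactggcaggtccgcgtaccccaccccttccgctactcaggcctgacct
Atp5g3: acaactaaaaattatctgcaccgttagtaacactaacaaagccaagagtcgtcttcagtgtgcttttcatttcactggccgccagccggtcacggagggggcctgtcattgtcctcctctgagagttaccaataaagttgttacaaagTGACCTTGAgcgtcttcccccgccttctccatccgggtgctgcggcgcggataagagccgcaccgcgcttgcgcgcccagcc

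Of the 75 tested genes, 65 have a RefSeq window of 300 bases (250 before the start and 50 after), and motifs were searched there on both strands. The NRF1 letters GCGCATGCG were found in 8 of the 65 (12.3%), against 3.72% of the 6674 tested genes with a window and 1.81% of all 27025 windows. The 8 genes are Ndufa8, Ndufaf4, Ndufaf5, Uqcr11, Uqcrc1, Cox6a1, Atp5g2 and Atp5l. The GABP letters were in 15 windows (23.1%, against 18.8% and 9.12%). The YY1 letters AAGATGGCG were in 6 (9.23%, against 3.49% and 1.49%), among them Ndufs4, Ndufs6 and Ndufs7. The ERR letters TCAAGGTCA were in 2, Atp5g3 and Sdhd (3.08%, against 0.285% and 0.407%). Their shorter form AAGGTCA was in 6 (9.23%, against 3.43% and 4.66%). The general promoter letters GGGCGG of SP1 were in 47.7%, against 63.2% of tested genes and 35.9% of all windows, CCAAT in 43.1% (39.1% and 37.9%) and TATAAA in 7.69% (8.11% and 14.2%). Each share is a description of letters in these windows. It is not a measure of binding.

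Of the 82 genes, 75 passed the filter on dim probes, which kept a probe detected at p under 0.05 on at least 7 of the 14 arrays. By complex, 39 of 40 genes were tested for complex I, 3 of 3 for complex II, 6 of 8 for complex III, 12 of 15 for complex IV and 15 of 16 for complex V. The 7 genes with no kept probe are Ndufs1, the iron-sulfur core subunit of complex I, Uqcrfs1, the Rieske protein of complex III, Uqcrq, also of complex III, the tissue forms Cox4i2, Cox7b2 and Cox8c, and Atp5k. The signals of their probes did not pass 12 on any array. These genes have no level here.

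No respiratory chain gene passed the test of palatinose against sucrose livers. With limma, 0 of the 75 had an adjusted p under 0.05, and over all 8829 features the share was 0%. The smallest adjusted p among them was 0.678, against 0.316 over all features. Values were higher on palatinose for 51 of the 75 genes (68%) and lower for 24, with a median log2 difference of 0.030. Over all features 54.8% were higher and the median was 0.014. When arrays were scaled to a common median in place of quantile normalization, 40 of the 75 were higher and the median was 0.013, against 0.0031 over all features. Without PAL_407_04 the median of the chain was 0.064. At an unadjusted p under 0.05, 6 genes were higher on palatinose (8%, against a background of 3.75% of all features) and 0 were lower (background 3.35%). The 6 are Ndufa2, Ndufa3, Ndufb10, Ndufv3, Atp5e and Atp5g1. Without PAL_418_07 the number was 2, and without PAL_417_02 or PAL_417_03 it was 3. Without SUC_424_02, Ndufb10, Ndufa2 and Atp5g1 were past that level no longer (limma unadjusted p = 0.084, 0.055 and 0.074). Cox7a2 was then higher (limma unadjusted p = 0.015) and Atp5pb lower (limma unadjusted p = 0.028). No gene separated the groups: 0 of 75 had palatinose and sucrose arrays that did not overlap, against 0.125% of all features. Each liver is a bulk sample, so fewer cells of a type and less RNA per cell cannot be told apart.

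The intervals give the size of difference that the arrays leave room for. The 95% interval lay within 1.2-fold to either side for 44 of the 75 genes (58.7%), against 39.0% of all features, and within 1.5-fold for 72 (96%), against 95.3%. The exceptions at 1.5-fold were Ndufb10, Cox6c and Cox6b2. By complex, the intervals of 26 of 39 genes of complex I, 0 of 3 of complex II, 4 of 6 of complex III, 5 of 12 of complex IV and 9 of 15 of complex V lay within 1.2-fold. Each interval holds for 1 gene by itself. An offset of 16 was added before the log, which draws the differences of dim probes toward 0, so for those the interval does not bound the change of the RNA.

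The transcripts were also more even between mice than most. The median SD within a diet was 0.133 log2, against 0.183 over all features. Bright probes vary less on this array, and 66 of the 75 genes were brighter than the median feature. Among features above that brightness, the median SD was 0.128 for the respiratory chain genes and 0.167 for all. That cut lies at 6.81 log2, whereas the median level of the chain was 10.88, so the comparison does not match brightness. The part of brightness in the smaller SD was not tested.

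**Figure D1:**
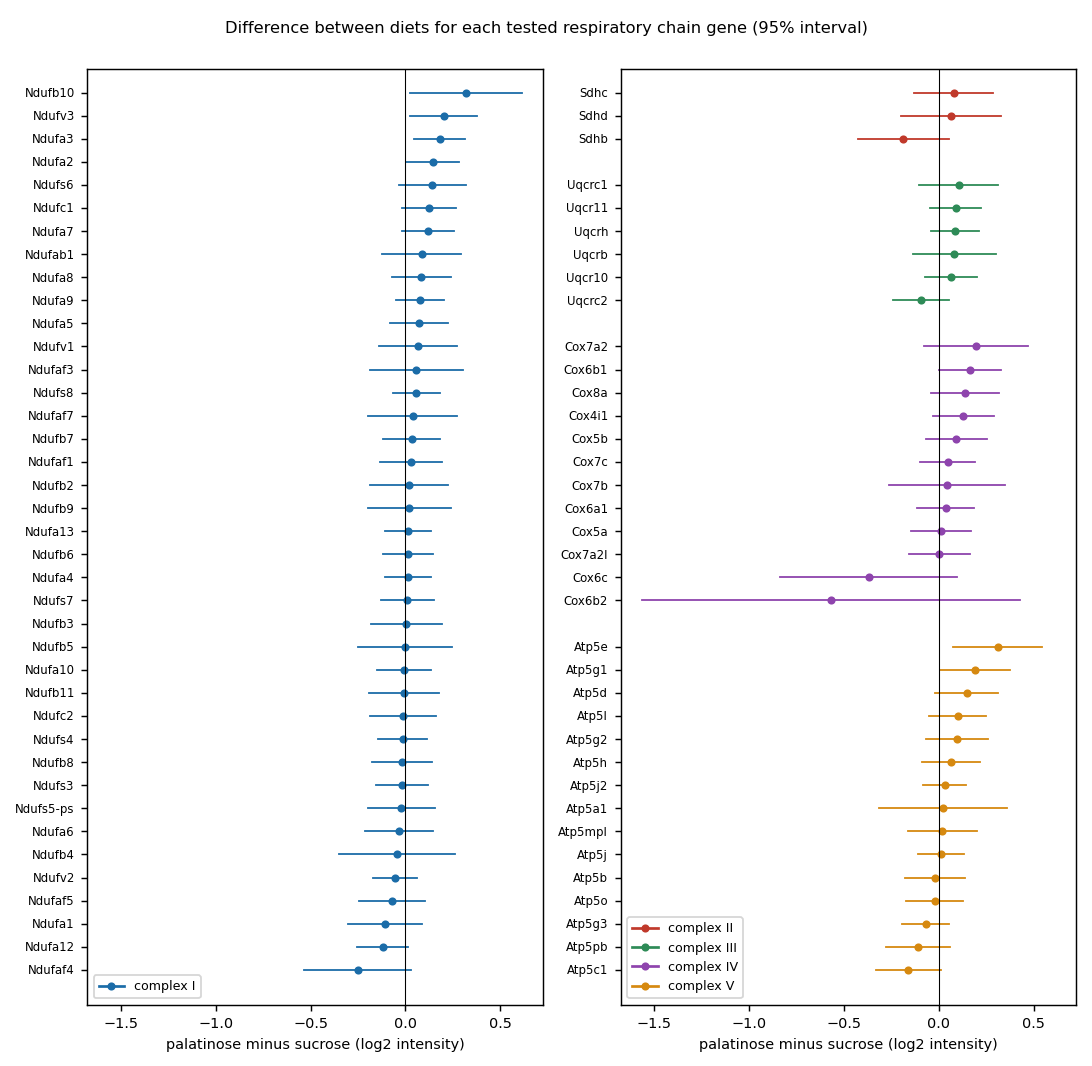
Difference between diets for each of the 75 tested genes, as palatinose minus sucrose in log2 intensity (horizontal axis), with its 95% confidence interval, sorted within each complex. Most points lie close to 0. The widest intervals are those of Cox6b2 and Cox6c, and the intervals of 6 genes, among them Ndufb10 and Atp5e, lie above 0.

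Complex I, the NADH dehydrogenase, had 24 genes with higher and 15 with lower values on palatinose, and a median difference of 0.014, which was 0.041 without PAL_407_04 and -0.0030 with median scaling. Its matrix arm begins at Ndufv1, which binds the flavin where NADH is oxidised. Ndufv1 had 11.70, 11.82 and 11.94 as lowest, median and highest log2 intensity on palatinose, against 11.22, 11.85 and 11.93 on sucrose. The groups overlapped throughout, and the low sucrose value was that of SUC_424_02. The difference was 0.067 (95% interval -0.14 to 0.27, limma adjusted p = 0.893), and -0.026 without that array.

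Ndufv3, an accessory subunit beside Ndufv1, had 11.15, 11.22 and 11.36 on palatinose, against 10.59, 11.07 and 11.17 on sucrose. All 7 palatinose arrays lay above the sucrose mean, and the difference was 0.20 (0.023 to 0.38, limma adjusted p = 0.681). Without SUC_424_02, the lowest array, it was 0.13. Its other kept probes gave 0.12 and 0.019. The test missed the threshold with either set of arrays.

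Ndufa2, an accessory subunit of the same NADH-oxidising module, had 11.20, 11.42 and 11.51 on palatinose, against 11.17, 11.25 and 11.34 on sucrose. The difference was 0.14 (0.0048 to 0.28, limma adjusted p = 0.695), and 6 of 7 palatinose arrays lay above the sucrose mean. Without SUC_424_02 the difference was 0.13 (-0.0032 to 0.27). Ndufa12, which sits on the matrix arm, ran the other way with 9.18, 9.34 and 9.44 on palatinose, against 9.36, 9.48 and 9.63 on sucrose. All 7 palatinose arrays lay below the sucrose mean, at a difference of -0.12 (-0.25 to 0.015, limma adjusted p = 0.721).

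In the membrane arm, Ndufa3 had the smallest p of the whole chain. It had 10.97, 11.12 and 11.20 on palatinose, against 10.81, 10.92 and 11.11 on sucrose. Each of the 7 palatinose arrays lay above 6 of the 7 sucrose arrays, and the overlap came from the sucrose array SUC_411_03. The difference was 0.18 (0.046 to 0.31, limma unadjusted p = 0.011, adjusted p = 0.678), and 0.17 without SUC_424_02.

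Ndufb10, an accessory subunit at the far end of the membrane arm, had 7.97, 8.44 and 8.85 on palatinose, against 7.68, 8.15 and 8.31 on sucrose. Its difference of 0.32 (0.025 to 0.62, limma adjusted p = 0.690) was the largest of any tested gene of the chain on palatinose. The groups overlapped, and the lowest palatinose array, PAL_407_04, lay under 5 of the 7 sucrose arrays. Without the 4 arrays with muscle transcripts the difference was 0.51 (limma adjusted p = 0.361), and without SUC_424_02 it was 0.25. The part of the muscle RNA in this difference was not tested.

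Of the 5 complex I assembly factors, none of which stays in the finished enzyme, 3 had higher and 2 had lower values on palatinose. Ndufaf4 had 7.76, 7.92 and 8.07 on palatinose, against 7.88, 8.07 and 8.98 on sucrose, where the highest value was again SUC_424_02. The difference of -0.25 (-0.53 to 0.032, limma adjusted p = 0.721) was -0.12 without that array. The differences of the remaining 32 genes of complex I ran from -0.11 for Ndufa1 to 0.14 for Ndufs6. Among them are the quinone-side core subunits Ndufs3 (-0.019), Ndufs7 (0.011) and Ndufs8 (0.057), whose intervals all lay within 1.2-fold, and Ndufab1, the mitochondrial acyl carrier protein (0.086).

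**Figure D2:**
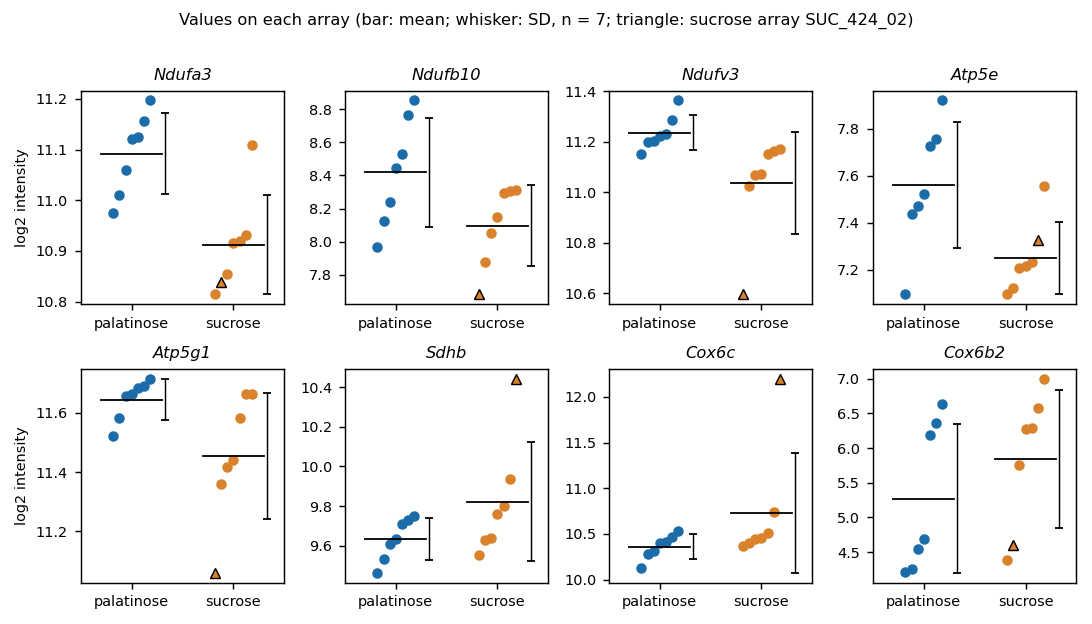
Log2 intensity on each array for 8 genes, palatinose at the left and sucrose at the right of each panel, with the mean as a bar and the SD of 7 arrays as a whisker. Sucrose array SUC_424_02, the triangle, is the lowest sucrose value for Ndufb10, Ndufv3 and Atp5g1 and the highest for Sdhb and Cox6c, and the Cox6b2 points fall at a low and a high level in both diets.

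Complex II, succinate dehydrogenase, which also belongs to the TCA cycle, was represented by 3 genes with a median difference of 0.065. Sdhb, its iron-sulfur subunit, had 9.46, 9.64 and 9.75 on palatinose, against 9.55, 9.76 and 10.44 on sucrose. All 7 palatinose arrays lay below the sucrose mean, and the highest sucrose array was SUC_424_02. The difference was -0.19 (-0.43 to 0.051, limma adjusted p = 0.738), and -0.085 without SUC_424_02. Its other kept probes gave -0.15 and, for a dim probe with signals of 6 to 15, 0.068.

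The membrane anchors Sdhc and Sdhd hold the heme and the quinone site. Sdhc had 10.84, 10.90 and 10.99 on palatinose, against 10.31, 10.93 and 11.06 on sucrose. Its difference was 0.078 with all arrays and -0.011 without SUC_424_02, the lowest. Sdhd had 7.92, 8.35 and 8.54 on palatinose, against 7.89, 8.28 and 8.70 on sucrose, at a difference of 0.065 (-0.20 to 0.33, limma adjusted p = 0.923). That difference was 0.011 without SUC_411_03, 0.15 without SUC_421_03 and 0.22 without the 4 muscle-positive arrays. For complex II the direction of the median therefore rested on 1 array, and was -0.011 without it.

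Complex III, the cytochrome bc1 complex, had 5 of 6 tested genes with higher values on palatinose and a median difference of 0.083, which was 0.054 without SUC_424_02. Uqcrc1 and Uqcrc2 form its large matrix-facing core pair. Uqcrc1 had 10.75, 11.01 and 11.18 on palatinose, against 10.45, 10.95 and 11.02 on sucrose, a difference of 0.10 (-0.10 to 0.31, limma adjusted p = 0.829) that was 0.038 without SUC_424_02. Uqcrc2 had 11.69, 11.77 and 12.01 on palatinose, against 11.72, 11.88 and 12.09 on sucrose, a difference of -0.095 (-0.24 to 0.053, limma adjusted p = 0.780) that was -0.063 without the same array. The members of the pair thus had estimates on opposite sides of 0, neither of them past the threshold.

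Of the small subunits, Uqcrh, the hinge protein next to cytochrome c1, had 11.93, 12.07 and 12.15 on palatinose, against 11.86, 11.96 and 12.07 on sucrose, a difference of 0.085 (-0.040 to 0.21, limma adjusted p = 0.768). Uqcr11, whose promoter holds both NRF1 and GABP letters, had 12.27, 12.32 and 12.55 on palatinose, against 12.19, 12.29 and 12.38 on sucrose, a difference of 0.088 that was 0.058 without PAL_430_04. Uqcr10 and Uqcrb had differences of 0.064 and 0.082. The intervals of all 6 tested genes of complex III lay within 1.5-fold.

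Complex IV, cytochrome c oxidase, had 10 of 12 tested genes with higher values on palatinose and a median difference of 0.044, which was 0.084 without PAL_407_04 and 0.028 without PAL_418_07. Cox4i1, the common form of subunit 4, had 12.57, 12.64 and 12.79 on palatinose, against 12.22, 12.59 and 12.73 on sucrose, a difference of 0.13 (-0.032 to 0.29, limma adjusted p = 0.738). Cox6b1, which joins the monomers of the enzyme on the intermembrane side, had 12.13, 12.24 and 12.33 on palatinose, against 11.71, 12.12 and 12.22 on sucrose, a difference of 0.16 (-0.00020 to 0.33, limma adjusted p = 0.699). All 7 palatinose arrays lay above the sucrose mean for both genes, and the lowest sucrose array for both was SUC_424_02. Without it the differences were 0.075 and 0.10.

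Cox5a, a matrix-side subunit, and Cox7a2l had estimates near 0, at 0.0096 (-0.15 to 0.17) and 0.0029 (-0.16 to 0.16). Cox7a2, the liver form of subunit 7a, had 7.30, 7.67 and 7.97 on palatinose, against 7.05, 7.45 and 8.04 on sucrose. Its difference was 0.19 with all arrays and 0.29 (0.065 to 0.51, limma adjusted p = 0.644) without SUC_424_02, which was the highest of its sucrose arrays.

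Cox6c, a small subunit of the membrane part, had the largest deviation of any kept chain probe on SUC_424_02. Its signal was 1084 to 1441 on the palatinose arrays and 1236 to 1755 on 6 sucrose arrays, against 5894 on SUC_424_02. In log2 intensity it had 10.12, 10.40 and 10.53 on palatinose, against 10.37, 10.45 and 12.20 on sucrose. The difference of -0.37 (-0.84 to 0.098, limma adjusted p = 0.738) was -0.13 (-0.29 to 0.040, limma adjusted p = 0.794) without that array.

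Cox6b2 is the form of subunit 6b known from testis, and it was the most variable gene of the chain in these livers. Its signals were -4, -1, 7, 10, 58, 64 and 82 on palatinose arrays, against 3, 9, 39, 55, 59, 78 and 101 on sucrose arrays. It was detected on 4 palatinose and 6 sucrose arrays, and a low and a high level occurred within each diet. In log2 intensity it averaged 5.27 ± 1.07 on palatinose and 5.84 ± 1.00 on sucrose (SD, 7 arrays each), a difference of -0.57 (-1.57 to 0.43, limma adjusted p = 0.800) that was -0.38 without SUC_423_04. Its SD within a diet was 1.03, against a median of 0.133 for the chain. A different Cox6b2 probe was detected on 0 arrays, so the values rest on 1 probe.

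Complex V, the ATP synthase, had 10 of 15 tested genes with higher values on palatinose and a median difference of 0.022. That median was -0.00043 without PAL_429_03, 0.048 without PAL_407_04 and -0.0020 when arrays were scaled to a common median in place of quantile normalization. In its catalytic head, Atp5b (the beta subunit, which holds the active sites) had 13.45, 13.62 and 13.72 on palatinose, against 13.35, 13.63 and 13.78 on sucrose, a difference of -0.021 (-0.18 to 0.14) that was -0.065 without SUC_424_02 and 0.0068 without SUC_415_02. Atp5a1, the alpha subunit, had 8.89, 9.47 and 9.70 on palatinose, against 9.02, 9.26 and 10.12 on sucrose. Its difference of 0.022 (-0.31 to 0.36) was 0.15 without SUC_424_02, the highest array. Neither head subunit was past the threshold with any set of arrays.

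The central stalk that turns inside the head is built of Atp5c1 (gamma), Atp5d (delta) and Atp5e (epsilon). Atp5c1 had 11.26, 11.36 and 11.56 on palatinose, against 11.32, 11.51 and 11.83 on sucrose, a difference of -0.16 (-0.33 to 0.010, limma adjusted p = 0.706). Atp5d averaged 10.99 ± 0.090 on palatinose and 10.84 ± 0.17 on sucrose (SD, 7 arrays each), a difference of 0.15 (-0.019 to 0.31, limma adjusted p = 0.721).

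Atp5e had 7.09, 7.52 and 7.92 on palatinose, against 7.09, 7.21 and 7.56 on sucrose. Of the palatinose arrays 6 lay above the sucrose mean, and PAL_407_04, a muscle-positive array, matched the lowest sucrose array. The difference was 0.31 (0.075 to 0.54, limma unadjusted p = 0.013, adjusted p = 0.678), 0.32 without SUC_424_02 and 0.46 (limma adjusted p = 0.310) without the muscle-positive arrays. The 3 subunits of the stalk therefore did not share a direction, and none passed the test.

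Atp5g1, Atp5g2 and Atp5g3 encode the same mature subunit, the c subunit of the rotating membrane ring, with different import sequences. Atp5g1 had 11.52, 11.66 and 11.72 on palatinose, against 11.06, 11.44 and 11.66 on sucrose, a difference of 0.19 (0.0076 to 0.37, limma adjusted p = 0.695) that was 0.12 without SUC_424_02. Atp5g2 had 9.27, 9.62 and 9.67 on palatinose, against 9.37, 9.41 and 9.71 on sucrose, a difference of 0.095 that was 0.14 without PAL_429_03. Atp5g3 had 13.59, 13.72 and 13.81 on palatinose, against 13.70, 13.78 and 13.84 on sucrose, a difference of -0.071. Atp5g2 and Atp5g3 each had a limma adjusted p of 0.799. The 3 genes of this mature protein had estimates in both directions.

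The peripheral stalk, which keeps the head from turning, includes Atp5pb (subunit b). It had 10.15, 10.31 and 10.45 on palatinose, against 10.12, 10.50 and 10.60 on sucrose, a difference of -0.11 (-0.28 to 0.059, limma adjusted p = 0.779). Without SUC_424_02 the difference of Atp5pb was -0.16 (-0.30 to -0.020, limma adjusted p = 0.677). Its partners Atp5h (subunit d), Atp5j (factor 6) and Atp5o (the oligomycin sensitivity protein) had differences of 0.065, 0.011 and -0.022. The membrane subunits Atp5l, Atp5j2 and Atp5mpl had differences of 0.099, 0.030 and 0.019.

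Counting genes instead of averaging them showed how the chain varied from liver to liver. A gene was scored on each array as above or below its own median over the 14 arrays. Of 75 genes, those above their median numbered 14, 34, 35, 41, 50, 57 and 59 on the palatinose arrays, against 19, 23, 27, 33, 37, 39 and 52 on the sucrose arrays. The lowest and the highest count, on PAL_407_04 and PAL_418_07, both came from palatinose livers, and the groups overlapped. Over all features, 46.4% to 53.6% lay above their own median on each array.

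On several arrays the complexes deviated in the same direction. On PAL_407_04, a muscle-positive array, complexes I, II, III and V had mean deviations of -0.12, -0.11, -0.13 and -0.087 log2 from the mean of the 14 arrays, with 8 of 39, 1 of 3, 0 of 6 and 3 of 15 genes above their median. On PAL_418_07 all 5 complexes had positive mean deviations, between 0.048 and 0.14. On the sucrose array SUC_423_04 complexes I, II, III and V had -0.034, -0.075, -0.076 and -0.057. The mean of complex IV includes Cox6b2, whose own values span over 2 log2 units, so it can part from the others.

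**Figure D3:**
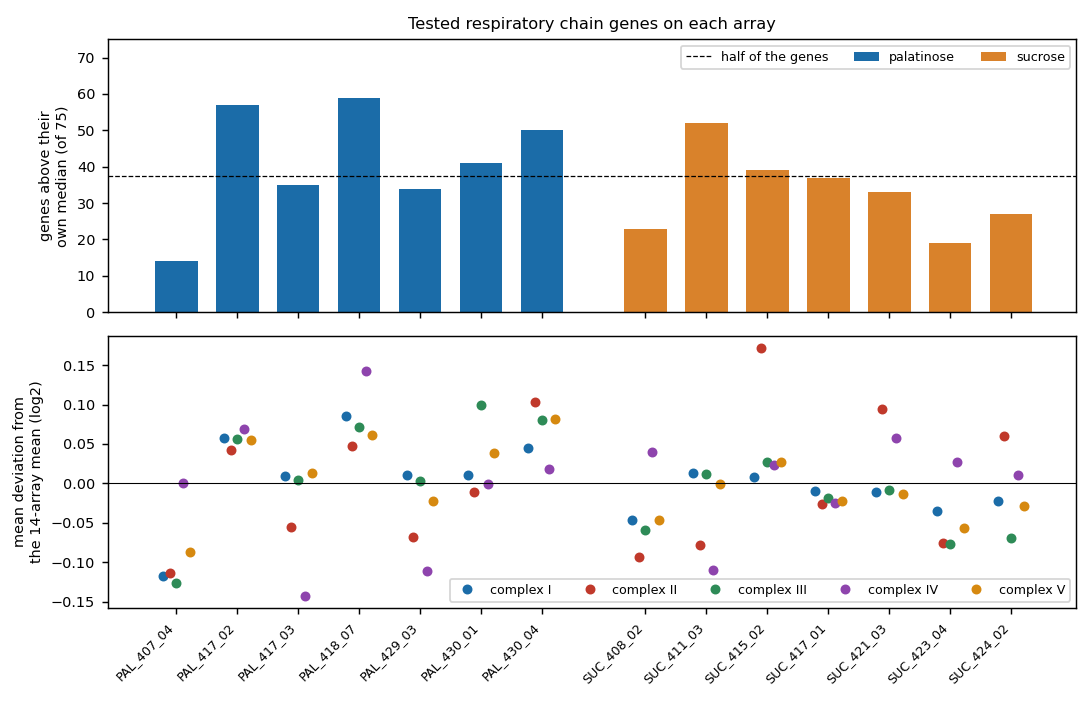
Upper panel: number of the 75 tested genes above their own 14-array median on each array, palatinose at the left and sucrose at the right, with a dashed line that divides the 75 genes evenly. Lower panel: mean deviation of each complex from its 14-array mean in log2 intensity. The counts run from 14 to 59 on palatinose arrays and from 19 to 52 on sucrose arrays.

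Muscle is rich in mitochondria and has its own forms of complex IV subunits, so values of the muscle-positive arrays are given beside these counts. Of the left-out muscle forms, Cox6a2 gave signals of 62, 14 and 395 on PAL_407_04, PAL_417_03 and PAL_429_03 and 243 on SUC_415_02, against 5 or less elsewhere. Cox8b gave 65, 15 and 264 on the same palatinose arrays and 139 on SUC_415_02, against 0 to 14 elsewhere, so its value on PAL_417_03 did not stand apart. Cox7a1 gave 99 on PAL_429_03 and 93 on SUC_415_02, and 18 to 67 on the other arrays. In a fit without these 4 arrays, which was chosen after seeing the data, 0 genes of the chain and 0 features passed, and 56 of 75 genes had higher values on palatinose. The median differences were 0.076, 0.12, 0.12, 0.13 and 0.043 for complexes I to V and 0.095 for the chain, against 0.012 for all features. The fit leaves 4 palatinose and 6 sucrose arrays. The part of the muscle RNA in this shift was not tested.

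SUC_424_02 departed from the other livers in single transcripts, while the mean deviations of its complexes lay between -0.070 and 0.060 log2. Of the 91 kept probes of the chain, 22 (24.2%) lay more than 0.5 log2 from the median of the other 13 arrays, 14 above it and 8 below. Over all kept probes of this array the share was 17.7%. Every other array had 0 to 3 such probes of the chain. The SUC_424_02 value lay outside the range of the other 13 arrays for 60 probes of the chain, 29 above and 31 below. Any other array had 4 to 17 such probes, and no such count was made over all probes. All of these are values after quantile normalization, and a low value need not be a low signal. The tested Ndufa8 probe counts as below, yet its signal was 1808 on SUC_424_02, against 1396 to 1783 on the others. Ndufv1 was low in signal too, at 2939 against 3212 to 4017. The high probes include Cox6c (1.79 above that median), Ndufaf4 (1.02), Atp5a1 (0.85) and Sdhb (0.80). The low ones include Cox6b2 (-1.58), Ndufv1 (-0.64), Sdhc (-0.62) and Ndufb10 (-0.61).

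On this array probes of the same gene also parted. Ndufs4, an accessory subunit whose human form is known from mitochondrial disease, has 4 kept probes, which lay 0.095, 0.31, 0.59 and 0.78 above the median of the other arrays. The tested probe of Ndufc1 lay 0.24 below that median and its other kept probe 0.51 above it. Ndufb6 had -0.16 and 0.57, and Ndufa5 had -0.32 and 0.44. In each of these last pairs the brighter probe was the one below the median. Before normalization, the signals of these brighter probes on SUC_424_02 lay within or above the range of the other arrays. They were 2479 for Ndufc1 (other arrays 2003 to 2589), 3454 for Ndufb6 (2567 to 3353) and 1952 for Ndufa5 (1752 to 2194). The cause was not tested. Over the whole comparison, 12 genes had several kept probes, and 11 of their 16 other probes gave a diet difference of the same sign as the tested probe, with a largest gap of 0.26 log2.

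**Figure D4:**
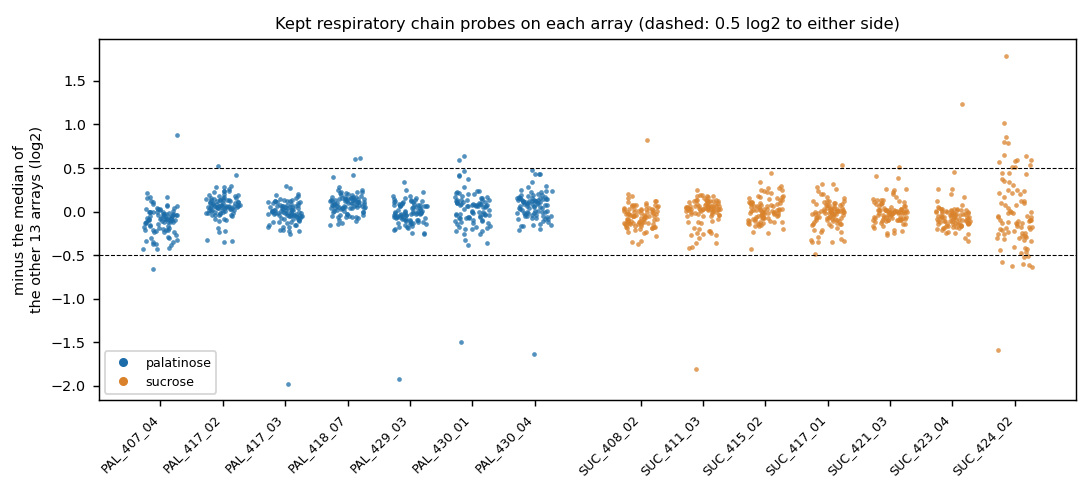
Each point is 1 of the 91 kept respiratory chain probes on 1 array, as its log2 intensity minus the median of the other 13 arrays, with palatinose arrays at the left and sucrose arrays at the right. Dashed lines mark 0.5 log2 to either side, and 22 probes lie beyond them on SUC_424_02, against 0 to 3 on every other array. Of all kept probes on SUC_424_02, 17.7% lie as far out. The points near and below -1.5 are Cox6b2.

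The genes that surround the chain in mitochondria gave no call either: 0 of the 180 tested genes of 11 lists passed with limma. At an unadjusted p under 0.05, 7 of them were higher on palatinose (3.89%, against 3.75% of all features) and 3 lower (1.67%, against 3.35%). Beside the listed Ndufaf factors, 5 of 9 other complex I assembly and biogenesis genes were higher on palatinose (median 0.0095). For complex III, 4 of 5 genes of the list with Cyc1 and assembly factors were higher (median 0.0028), while Bcs1l, which inserts the Rieske protein, averaged 6.26 ± 0.14 on palatinose and 6.45 ± 0.12 on sucrose (difference -0.18, limma adjusted p = 0.681). For complex IV assembly, 9 of 16 genes were higher (median 0.015). They include Coa7 (difference 0.31) and the copper chaperone Cox17 (0.21), each at a limma adjusted p of 0.681. The complex II and complex V assembly lists had medians of 0.0084 and 0.024 over 4 genes each.

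Upstream of the chain, 7 of 16 TCA cycle genes and 7 of 15 genes of the mobile carriers and other entry points for electrons had higher values, with medians of -0.017 and -0.00058. Fh1, the fumarase that follows succinate dehydrogenase, averaged 9.96 ± 0.14 on palatinose and 10.23 ± 0.31 on sucrose (difference -0.26, limma adjusted p = 0.695). Ogdh, a component of the oxoglutarate dehydrogenase, averaged 8.76 ± 0.15 on palatinose and 8.58 ± 0.16 on sucrose (difference 0.19, limma adjusted p = 0.695). Of the nuclear-encoded regulators of mitochondrial genes and their RNAs, 6 of 14 were higher (median -0.016). Cluh, which binds mRNAs of mitochondrial proteins, had the smallest adjusted p of these lists, with 9.05 ± 0.11 on palatinose and 8.67 ± 0.19 on sucrose (difference 0.38, limma adjusted p = 0.465). Carriers and porins, and the import and inner membrane genes, had medians of 0.011 and -0.0081.

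The ribosomal lists give a scale for these shifts. Mitochondrial ribosomal proteins were higher for 42 of 70 genes, with a median of 0.032, close to the 0.030 of the respiratory chain. Cytosolic ribosomal proteins, which have no role in the chain, were higher for 47 of 54 genes, with a median of 0.10. At an unadjusted p under 0.05, 8 of the 54 were higher and 0 lower, against 3.75% and 3.35% of all features. A share of higher values above that of all features was thus measured in a list outside mitochondria too.

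**Figure D5:**
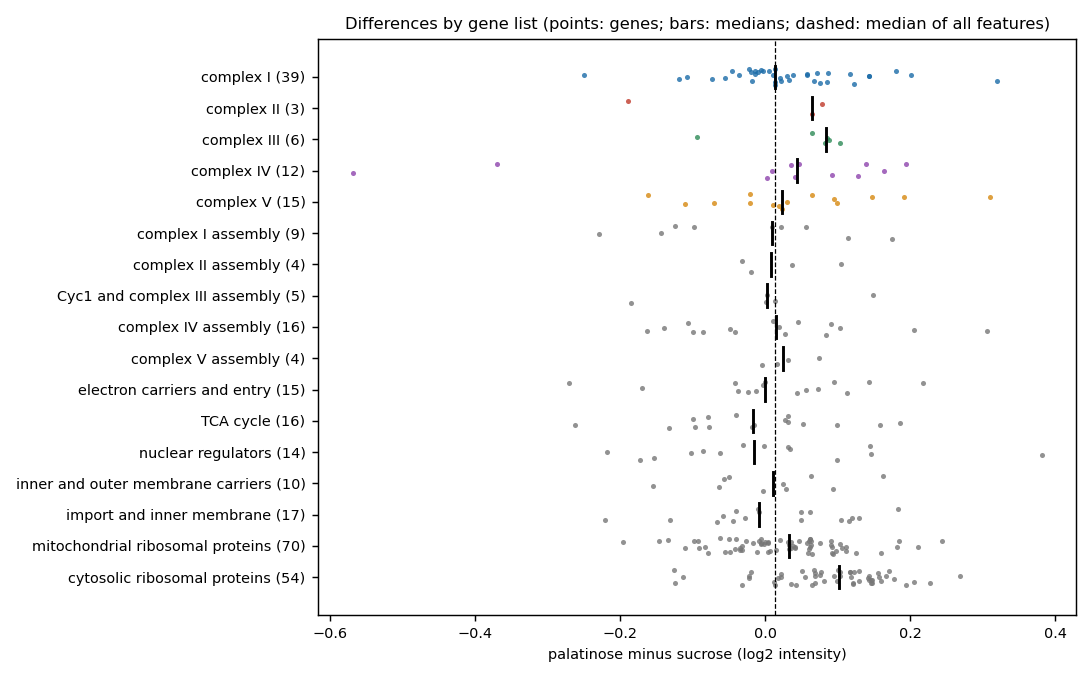
Palatinose minus sucrose differences in log2 intensity of single genes (points) and their medians (bars) for the 5 complexes and for other lists of at least 4 tested genes, with the number of genes in brackets. The dashed line is the median of all features, 0.014. The medians of the complexes lie between 0.014 and 0.083, and that of the cytosolic ribosomal proteins is 0.10.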

How the data were processed

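The non-normalized table deposited by the authors holds a background-subtracted signal intensity for each probe and array, with a detection p-value beside it, per the file headers. The series table deposited by the authors holds intensities normalized by a method not given in the sources used here, and served as an alternative. Columns of the non-normalized table give diet and a code, which names the arrays here. SUC_417_01, PAL_417_02 and PAL_417_03 share the first number of the code, as do PAL_430_01 and PAL_430_04. The column names do not say what this number stands for. It is the column code used as a random block in the closing section. Labels describe RNeasy purification with DNase and TotalPrep amplification.

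Background correction (from the detection p-values, offset 16), quantile normalization, the log2 step and the test used limma 3.58.1 in R 4.3.3. Of 25697 probes, 11628 with a detection p under 0.05 on at least 7 arrays were kept. The brightest kept probe stood for a gene, which gave 8829 features, 8146 of them named. lmFit and eBayes compared 7 palatinose with 7 sucrose arrays, two-sided, with Benjamini-Hochberg adjustment over all features and calls at an adjusted p under 0.05. The pipeline was tested on simulated data.

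Named are a fixed panel, the 2 genes of smallest p per complex and direction, those with unadjusted p under 0.05, and up to 2 genes of each other list. Others were singled out after their values were seen. The genes and lists were chosen with earlier results of these data known. Replicate numbers did not pair the arrays (correlations -0.23 to 0.16, over 0.1 for 3 of 7 numbers). The number of arrays limits the precision. Alternatives are in the closing section.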

Additional observations from a re-analysis of the deposited data

Results flagged for a closer look

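Within each diet, 66 sets of 7 arrays were checked for an array far from the rest, for 28 named genes and for the mean deviation of each complex. The gap to the nearest other array, divided by the range, passed the limit of Dixon's test in 13 of them. Chance gives about 1 in 20 such sets, and the sets share arrays.

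Of the 13, 8 are SUC_424_02, the sucrose array with the highest mean signal. It was above the other sucrose arrays for Cox6c (12.20, others 10.37 to 10.75), Ndufaf4 (8.98, others 7.88 to 8.21), Cox5a (12.28, others 11.84 to 12.02) and Sdhb (10.44, others 9.55 to 9.94). It was below them for Ndufv1 (11.22, others 11.78 to 11.93), Ndufv3 (10.59, others 11.02 to 11.17), Cox6b1 (11.71, others 12.03 to 12.22) and Sdhc (10.31, others 10.79 to 11.06).

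PAL_407_04, which carries muscle transcripts, lay below the other palatinose arrays in the mean deviation of complex I (-0.12, others 0.0091 to 0.086) and complex III (-0.13, others 0.0032 to 0.10). Ndufa3 was high on SUC_411_03 (11.11, others 10.81 to 10.93). Atp5g2 was low on PAL_429_03 (9.27, others 9.51 to 9.67) and high on SUC_408_02 (9.71, others 9.37 to 9.51).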

How the results depend on the processing

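Under 26 alternatives, 14 of them leaving out 1 array, 0 respiratory chain genes passed. Without the filter on dim probes 1 feature of the whole array passed, Atg2a, which is not of the chain. Genes with higher values on palatinose numbered 51, 45 to 54 with 1 array left out, and 40 to 56 otherwise. Those higher at an unadjusted p under 0.05 numbered 6, 2 (PAL_418_07 left out) to 8 (SUC_411_03 left out), 3 without PAL_417_02 or without PAL_417_03, and 4 to 9 otherwise. Those lower numbered 0 to 2. Without the muscle-positive arrays (added after seeing the data), the medians were 0.076 for complex I, 0.13 for complex IV and 0.095 for the chain, against 0.014, 0.044 and 0.030. The medians of complexes I, II and V were -0.0030, -0.011 and -0.0020 at their lowest. The 6 named genes that changed sign under some alternative all had unadjusted p-values over 0.1. Cox7a2l gave -0.00034 with cyclic loess, -0.010 with median scaling, -0.033 with array weights and -0.026 with the column code as a random block. Cox5a gave -0.0012 with cyclic loess and -0.0060 with median scaling. With array weights Ndufv1 gave -0.038 and Sdhc -0.0071, and without the muscle-positive arrays Atp5b gave 0.043. Leaving out 1 array gave -0.033 to 0.15 for Atp5a1, -0.065 to 0.0068 for Atp5b, -0.013 to 0.060 for Cox5a, -0.032 to 0.037 for Cox7a2l, -0.026 to 0.093 for Ndufv1 and -0.011 to 0.12 for Sdhc. The cause of these changes was not tested. With the replicate number as a block on the authors' values (replicate block), 0 genes passed, 6 were higher and 1 lower at an unadjusted p under 0.05, and the median of the chain was 0.030. No slide block was run, since no source used here names the slide. Probes of the 7 genes without a kept probe were too dim for a value.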

Other observations

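Of the neighbours of Cox6b2 on chromosome 7, 4 were tested: Kmt5c, Ppp6r1, Hspbp1 and Rpl28. Kmt5c, a histone methyltransferase gene, is given in full because its values, seen with those of Cox6b2, followed them most closely. Kmt5c had 7.07, 6.99 and 6.97 log2 intensity on the 3 palatinose arrays with Cox6b2 signals of 82, 58 and 64. It had 6.85, 6.80, 6.75 and 6.78 on the palatinose arrays with Cox6b2 signals of -4, -1, 10 and 7. On sucrose, Kmt5c had 7.24, 7.10, 7.12, 7.12 and 7.27 on the arrays with Cox6b2 signals of 78, 39, 59, 55 and 101. It had 6.73 and 6.30 on SUC_411_03 and SUC_424_02, with Cox6b2 signals of 3 and 9. Between the diets Kmt5c differed by -0.097 (limma unadjusted p = 0.46). Ppp6r1 had 7.37, 7.24 and 7.43 on the palatinose arrays with the high Cox6b2 signals and 7.12 to 7.22 on the other palatinose arrays. On sucrose it had 6.95 to 7.26 on the arrays with the high Cox6b2 signals and 7.02 and 6.76 on SUC_411_03 and SUC_424_02, so that these overlapped. Hspbp1 had 6.67, 6.95 and 6.81 on those high palatinose arrays and 6.44 to 6.64 on the other palatinose arrays, and overlapped on sucrose. Rpl28 overlapped between the arrays with high and low Cox6b2 signals in both diets. No explanation was tested.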
